A study of Homo sapiens with 15 samples.

Results

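Very long protein-coding genes were examined in IGROV-CP20 cells, a human ovarian cancer line that is resistant to cisplatin. The genes were chosen by length and by counts: nuclear protein-coding genes with a GENCODE 29 span (end minus start) of at least 500 kb and at least 150 counts summed over the 15 libraries. Of 19048 nuclear protein-coding genes in the tables, 310 reached the span, and 73 of these also had the counts. The 15 libraries, 3 biological replicates in each of 5 conditions, were made by QuantSeq, which reads transcripts at their 3′ end. Untreated cells were set beside cells kept in 50 µM cisplatin for 24 h. In the remaining 3 conditions the same exposure followed 24 h in 10 µM of a second compound, which was Tranilast, Telmisartan or else Amphotericin B. All groups come from a single cell line, and no group received a drug without cisplatin, so the effect of each drug alone was not measured.

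RNA polymerase II must copy a transcript from its start to its end, introns included, before the mature RNA exists. For the longest transcripts of human genes this takes many hours. The gene span used here covers all annotated transcripts of a gene, so a shorter isoform needs only a part of it copied. Cisplatin binds to DNA and forms platinum adducts and crosslinks, and an adduct on the transcribed strand can stall the polymerase until transcription-coupled repair removes it. A longer template offers more positions for such lesions. Because QuantSeq counts about a read per transcript 3′ end, the values here are not divided by length, and they report polyadenylated RNA present at the time of harvest, not the rate of its synthesis.

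The libraries held 1510620 to 3517041 counts, and 3 counts stand for 8.53e-05% to 0.000199% of a library (counting error only). Values are CPM, counts scaled to a library of fixed size, on library sizes scaled by TMM, and TMM factors were 0.721 to 1.27. Cisplatin replicate 1 and Telmisartan replicate 3 stood apart from their own groups. Over genes, chi-square divided by its degrees of freedom was 26.4 and 43.1 for the former against its fellow replicates, and 37.8 and 44.1 for the latter. The remaining pairs within a group gave 2.24 to 8.07. The counts and medians that lead each comparison are also given without these 2 libraries, a setting added after the data were seen. Of the epithelial markers, KRT18 was at 84.0 to 92.4 CPM, EPCAM at 39.9 to 43.4 CPM and KRT8 at 16.3 to 16.9 CPM in untreated cells, while KRT19 reached 1.02 to 3.83 CPM and CDH1 1.59 to 2.59 CPM. The ovarian carcinoma markers PAX8 and MUC16 had 1 and 4 counts in all 15 libraries, and the leukocyte marker PTPRC was at 64.5 to 75.4 CPM in untreated cells, so the label of the line is not borne out by every marker. Of the other markers of cells that the culture should lack, CD3E (T cells) and VWF (endothelium) had 0 counts in all libraries. LUM (fibroblasts) had 13 counts and SNAP25 (neurons) 1. COL1A1 (fibroblasts) was at 6.38 to 8.63 CPM in untreated cells and reached 32.7 CPM over all libraries. SYP (neurons) was at 2.59 to 5.09 CPM and reached 14.2 CPM, and ALB (liver) was at 0.319 to 2.04 CPM and reached 9.70 CPM.

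The 73 genes spread over 20 chromosomes, with 10 on chromosome 3 and 9 on chromosome 1. The span ran from 503.0 to 2241.8 kb with a median of 697.9 kb. They had a median of 21 exons against 9 for the protein-coding genes tested, and their longest intron had a median length of 157970 bases against 8803. Exons made up a median of 0.640% of the span, against 9.84% in the protein-coding genes tested. The median GC content of the transcript was 45.2% against 48.8%. Neighbours and nested genes share this space: 44 members had a gene overlapping on the same strand and 65 on the opposite strand, and for 8 members the opposite-strand genes held more counts than the member. For 3 members, BCAS3, AGAP1 and ZFHX3, same-strand genes held more than 10% of the member's counts. Since the use of strand in counting is not given in the sources used here, reads of such neighbours may be in a member's value. Calls for BCAS3, AGAP1, DMD, ZFHX3, GSE1, ADGRL2, IMMP2L and ULK4, which have such partners, are uncertain to that extent.

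Promoters of the long genes were of several kinds. The 250 bases before the RefSeq start (GRCh38.p14) are shown for 3 members because they set a pair of genes with a large decrease and opposite CG content beside a gene that did not decrease. Capitals mark CG dinucleotides. FBXL17 (chr5:108382099-108382348, minus strand) had 35 CG and a GC content of 75.2%, AKAP6 (chr14:32329048-32329297, plus strand) had 2 CG and 40% GC, and PTPRK (chr6:128520600-128520849, minus strand) had 38 CG and 77.2% GC.
FBXL17: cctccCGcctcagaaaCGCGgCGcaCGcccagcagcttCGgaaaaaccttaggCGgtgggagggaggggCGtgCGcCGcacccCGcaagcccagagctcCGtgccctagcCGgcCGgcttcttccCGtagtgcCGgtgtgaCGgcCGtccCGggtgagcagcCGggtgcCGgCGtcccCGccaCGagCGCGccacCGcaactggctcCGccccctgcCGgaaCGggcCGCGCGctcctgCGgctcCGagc
AKAP6: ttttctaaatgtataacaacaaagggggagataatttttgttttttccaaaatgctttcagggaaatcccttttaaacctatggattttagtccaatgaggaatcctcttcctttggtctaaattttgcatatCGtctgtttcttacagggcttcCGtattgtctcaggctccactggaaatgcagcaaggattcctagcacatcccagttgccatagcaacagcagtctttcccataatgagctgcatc
PTPRK: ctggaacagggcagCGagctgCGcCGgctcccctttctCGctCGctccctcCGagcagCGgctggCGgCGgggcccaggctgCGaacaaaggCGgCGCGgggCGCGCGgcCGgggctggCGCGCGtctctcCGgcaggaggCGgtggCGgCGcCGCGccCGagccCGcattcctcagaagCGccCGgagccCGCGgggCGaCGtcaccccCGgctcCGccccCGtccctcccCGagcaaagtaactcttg
Of the 60 members matched in the RefSeq table, 45 (75%) had at least 10 CG in these 250 bases, against 89.5% of the 8153 matched protein-coding genes tested and 51.9% of all 27305 promoters in the table. The share among the long genes was thus below that of the coding genes tested. After cisplatin 36 of the 45 with at least 10 CG were lower, with a median log2 fold change of -1.81, and so were 13 of the 15 with fewer, with a median of -2.18. Without both libraries that stood apart, 42 of the 45 and 14 of the 15 were lower, with medians of -2.59 and -2.82. Over all genes tested, 23.6% were lower with all libraries and 28.4% without these 2. The count of the motif CG is a description of the sequence and carries no statement about any factor.

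Long genes together lost most of their share of the RNA after cisplatin. In untreated cells they took 0.427%, 0.433% and 0.444% of all protein-coding counts. With cisplatin alone they took 0.160%, 0.0658% and 0.0699%, with all 3 libraries far below the untreated ones. The share was 0.134%, 0.160% and 0.170% after Tranilast, 0.150%, 0.151% and 0.112% after Telmisartan, and 0.186%, 0.176% and 0.210% after Amphotericin B, each followed by cisplatin. No library with cisplatin reached the untreated range. As a percentage of the untreated mean, the group means were 22.7% for cisplatin, 35.6% with Tranilast, 31.7% with Telmisartan and 43.8% with Amphotericin B. For coding genes of 200 to 500 kb, the same percentages were 32.1%, 63.4%, 43.7% and 45.2%. These are shares of the polyadenylated RNA sequenced, so fewer transcripts of these genes, more of others and a loss of cells cannot be told apart.

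**Figure D1:**
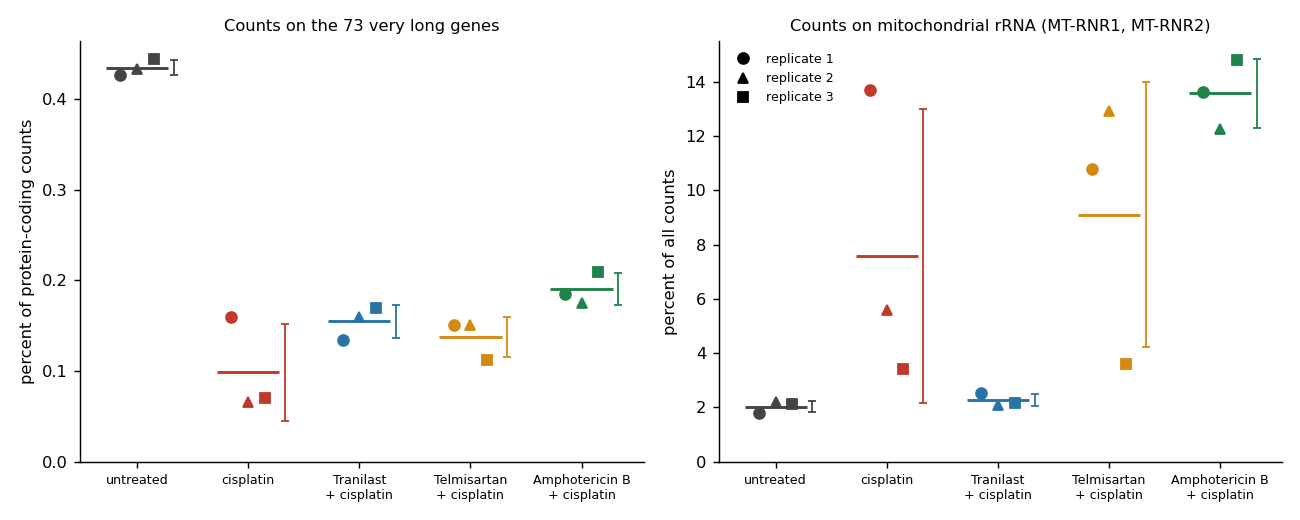
Percentage of protein-coding counts on the 73 long genes, and percentage of all counts on mitochondrial ribosomal RNA, in each of the 15 libraries. The untreated libraries hold 0.427% to 0.444% on long genes and the 12 libraries with cisplatin 0.0658% to 0.210%.

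The fall was shared by most members. Between cisplatin and untreated cells, 62 of 73 members were lower and 0 higher by edgeR's quasi-likelihood test (Benjamini-Hochberg adjusted p under 0.05), where 23.6% of the 11113 genes tested were lower and 21.1% higher. The median log2 fold change over members was -1.97, with quartiles of -2.37 and -1.47, and over all genes tested it was -0.01. For 61 members every cisplatin library was below every untreated one, against 29.5% of all genes tested. Since untreated counts enter the sum that chose the members, a gene could be chosen through high untreated counts alone, and these counts and medians are a description of the chosen genes. Of the 73, 59 also had at least 120 counts over the 12 libraries with cisplatin, and 49 of these were lower, with a median of -1.81. Within the cisplatin group, replicate 1 was the highest library for 65 of 73 members. The median log2 difference of members from the untreated mean was -0.98 in that library, and -2.36 and -2.67 in the other cisplatin libraries. Scaling by library size alone put the median of all genes at -0.36 and that of the members at -2.38, with 67 members lower. The share of all genes lower is not given in that setting. Without cisplatin replicate 1 and Telmisartan replicate 3, 69 members were lower and 0 higher, with a median of -2.71. All genes tested then gave 28.4% lower and 27.1% higher.

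**Figure D2:**
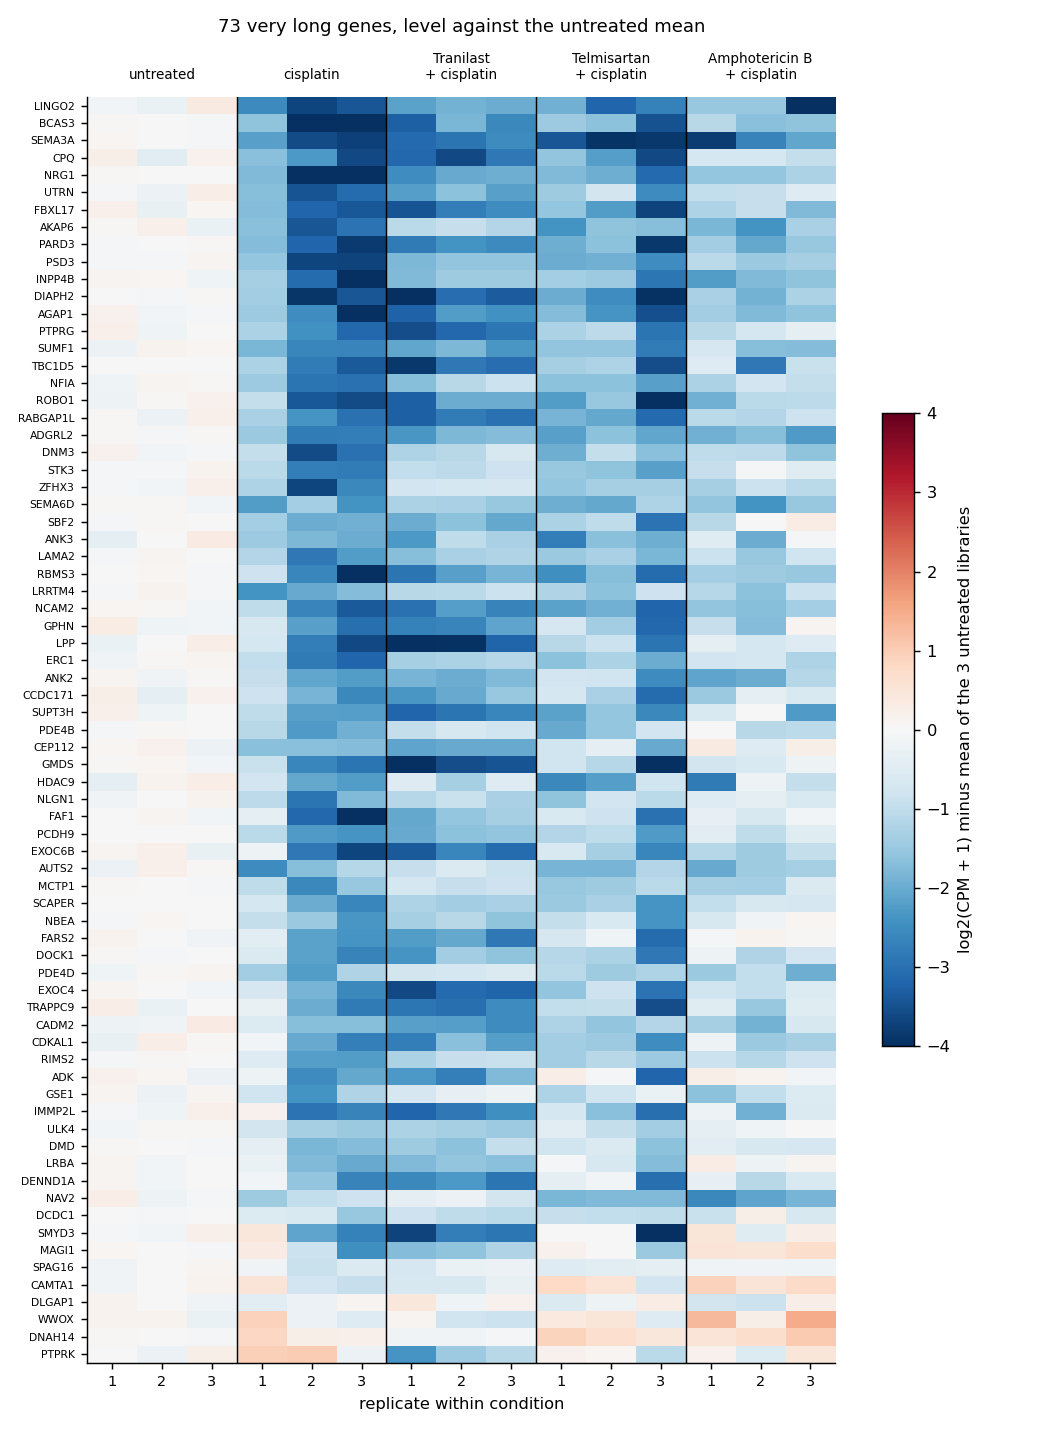
Difference of log2(CPM + 1) from the untreated mean for the 73 long genes (vertical) in the 15 libraries (horizontal), with lower values in blue and higher values in red. In 70 of 73 members the log2 fold change with cisplatin alone is negative, and the Amphotericin B libraries lie closer to untreated.

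Adhesion molecules and receptors held the member with the largest decrease. In this group 12 of 14 members fell, with a group median of -2.27. LINGO2 (chr9:27948078-28670286), a leucine-rich repeat membrane protein of neurons, was at 16.6, 15 and 23.7 CPM in the untreated libraries and at 2.24, 0.491 and 0.794 CPM with cisplatin (log2 fold change -4.0 ± 0.60 SE, adjusted p = 6.76e-05). SEMA3A (chr7:83955777-84492724), a secreted guidance cue that repels growing axons, went from 85.4, 80.3 and 78.9 to 17.4, 5.89 and 5.16 CPM (log2 fold change -3.15 ± 0.38 SE, adjusted p = 1.17e-05). NRG1 (chr8:31639386-32767959), a ligand of the ERBB receptors, went from 369, 349 and 347 to 104, 9.81 and 19.5 CPM (log2 fold change -3.03 ± 0.53 SE, adjusted p = 0.000258). In all 3 genes the groups did not overlap, and the least reduced cisplatin library was replicate 1. PCDH9, a protocadherin and the member with the most counts, went from 454, 463 and 451 to 213, 94.2 and 87.4 CPM (log2 fold change -1.8 ± 0.32 SE, adjusted p = 0.000309). PARD3, a scaffold of cell polarity and tight junctions, fell by 2.82 on the log2 scale and ADGRL2, a latrophilin adhesion receptor, fell by 2.35. The receptor phosphatase PTPRK and the junction scaffold MAGI1 were the members of the group that did not pass the test.

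Members that link membranes to the cytoskeleton or control its small GTPases fell in 9 of 9 cases, with a group median of -2.05. UTRN (chr6:144285701-144853034) encodes utrophin, the autosomal relative of dystrophin, and went from 20.1, 17.6 and 24.9 to 5.6, 0.981 and 1.59 CPM (log2 fold change -3.0 ± 0.50 SE, adjusted p = 0.000176). DMD, which encodes dystrophin and is the longest member at 2241.8 kb (chrX:31097677-33339441), went from 31.2, 30.5 and 29.3 to 23.5, 7.85 and 8.34 CPM (log2 fold change -1.23 ± 0.35 SE, adjusted p = 0.00959). The estimate was larger for UTRN, which spans 567.3 kb, than for DMD, and the difference between the genes was not tested. AGAP1, a GTPase-activating protein for ARF proteins, fell by 2.63 on the log2 scale. NAV2, a microtubule-binding neuron navigator, had the smallest decrease of the group, from 16.6, 11.5 and 13 to 4.48, 6.38 and 7.15 CPM (log2 fold change -1.16 ± 0.30 SE, adjusted p = 0.00508). In the signalling group 3 of 3 members fell: the lipid phosphatase INPP4B by 2.65, and the phosphodiesterases PDE4B by 1.97 and PDE4D, 1553.1 kb long, by 1.59 on the log2 scale.

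Among transcription and chromatin genes 6 of 8 fell, with a median of -1.93. BCAS3 (chr17:60677453-61392838), a WD40-repeat protein that also acts in autophagy, was at 23.6, 22.4 and 22.1 CPM in untreated cells and at 6.72, 0 and 0.397 CPM with cisplatin (log2 fold change -3.4 ± 0.70 SE, adjusted p = 0.000930). ZFHX3, a zinc finger homeobox transcription factor, went from 162, 159 and 201 to 72.8, 12.8 and 28.2 CPM (log2 fold change -2.22 ± 0.36 SE, adjusted p = 0.000134). NFIA, a nuclear factor I transcription factor, went from 59, 71.4 and 68.2 to 23.5, 7.85 and 7.55 CPM (log2 fold change -2.39 ± 0.34 SE, adjusted p = 4.44e-05). Each of these genes had its untreated libraries above every cisplatin library. AUTS2, 1195.2 kb long and associated with noncanonical Polycomb complexes, fell by 1.72. SMYD3, a lysine methyltransferase, and CAMTA1, a calmodulin-binding transcription activator, did not pass. Of the 2 genes of RNA binding and processing, RBMS3, 1435.6 kb long, fell by 2.17, and CDKAL1, a tRNA-modifying enzyme, did not pass (-1.47, adjusted p = 0.0529).

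Genes of vesicle traffic, ubiquitin and autophagy fell in 10 of 11 cases, with a median of -1.64. FBXL17 (chr5:107859035-108382098), an F-box protein that checks the assembly of BTB dimers, went from 34.4, 24.5 and 32.1 to 8.4, 2.45 and 1.99 CPM (log2 fold change -2.89 ± 0.51 SE, adjusted p = 0.000252). RABGAP1L and TBC1D5, which act on Rab GTPases, fell by 2.37 and 2.45, and TBC1D5 spans 1287.7 kb. ERC1, a scaffold of vesicle fusion sites, went from 125, 141 and 147 to 69.4, 18.6 and 14.3 CPM (log2 fold change -2.04 ± 0.38 SE, adjusted p = 0.000452). EXOC4, a subunit of the exocyst, fell by 1.56. DENND1A was the member of this group that did not pass. Of 6 genes of metabolism, mitochondria and genome upkeep 4 fell. They were GPHN, the gephyrin scaffold that also makes molybdenum cofactor, by 2.05, GMDS, which starts GDP-fucose synthesis, by 1.96, SCAPER by 1.65, and FARS2, a mitochondrial tRNA synthetase, by 1.64.

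Members outside these roles fell in 17 of 20 cases, with a median of -1.98. AKAP6 (chr14:32329273-32837681), an anchor for protein kinase A, went from 26.5, 29.6 and 20.9 to 7.28, 1.47 and 2.38 CPM (log2 fold change -2.84 ± 0.41 SE, adjusted p = 4.44e-05). CPQ, a carboxypeptidase, went from 13.4, 8.06 and 12.7 to 2.8, 1.47 and 0 CPM (log2 fold change -3.1 ± 0.71 SE, adjusted p = 0.00217), and PSD3, an exchange factor for ARF6, from 128, 131 and 148 to 45.4, 9.81 and 9.53 CPM (log2 fold change -2.7 ± 0.39 SE, adjusted p = 4.79e-05). All 3 genes had every untreated library above every cisplatin library. LRRTM4, a synaptic leucine-rich repeat protein, went from 35.1, 40.6 and 35.4 to 6.16, 8.34 and 10.3 CPM (log2 fold change -2.13 ± 0.28 SE, adjusted p = 2.03e-05), and here cisplatin replicate 1 was the lowest of its group. GSE1, a coiled-coil protein of a corepressor complex, fell by 1.35, with 65.5, 21.1 and 48.9 CPM in the cisplatin libraries.

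The test was not passed by 11 members: CDKAL1, ADK, IMMP2L, DENND1A, SMYD3, MAGI1, CAMTA1, DLGAP1, WWOX, DNAH14 and PTPRK, which are named here as the exceptions, after their values were seen. DNAH14, an axonemal dynein heavy chain, had 17.2, 16.7 and 15.5 CPM in untreated and 30.2, 19.6 and 19.1 CPM in cisplatin libraries, and was the only member with every cisplatin library above every untreated one (log2 fold change 0.47 ± 0.23 SE, adjusted p = 0.113). PTPRK had 9.88, 8.34 and 11.7 CPM in untreated and 20.2, 21.1 and 8.34 CPM in cisplatin libraries (log2 fold change 0.70 ± 0.41 SE, adjusted p = 0.171). Its groups overlapped, since cisplatin replicate 3 lay at the low end of the untreated values. WWOX, a tumour suppressor gene across a common fragile site, had 11.8, 11.8 and 8.66 CPM in untreated and 21.3, 8.83 and 7.15 CPM in cisplatin libraries (log2 fold change 0.17 ± 0.43 SE, adjusted p = 0.765). IMMP2L, a mitochondrial inner membrane peptidase gene at another fragile site, had 17.5, 16.1 and 21.1 CPM in untreated and 20.7, 1.47 and 1.99 CPM in cisplatin libraries (log2 fold change -1.27 ± 0.66 SE, adjusted p = 0.124). For SMYD3, singled out after its values were seen, the untreated libraries gave 24.9, 24.5 and 30.3 CPM and the cisplatin libraries 36.4, 5.4 and 3.18 CPM (log2 fold change -0.89 ± 0.74 SE, adjusted p = 0.340). In WWOX, IMMP2L and SMYD3 cisplatin replicate 1 stood within or above the untreated range, and in IMMP2L and SMYD3 the other cisplatin libraries lay below it.

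**Figure D3:**
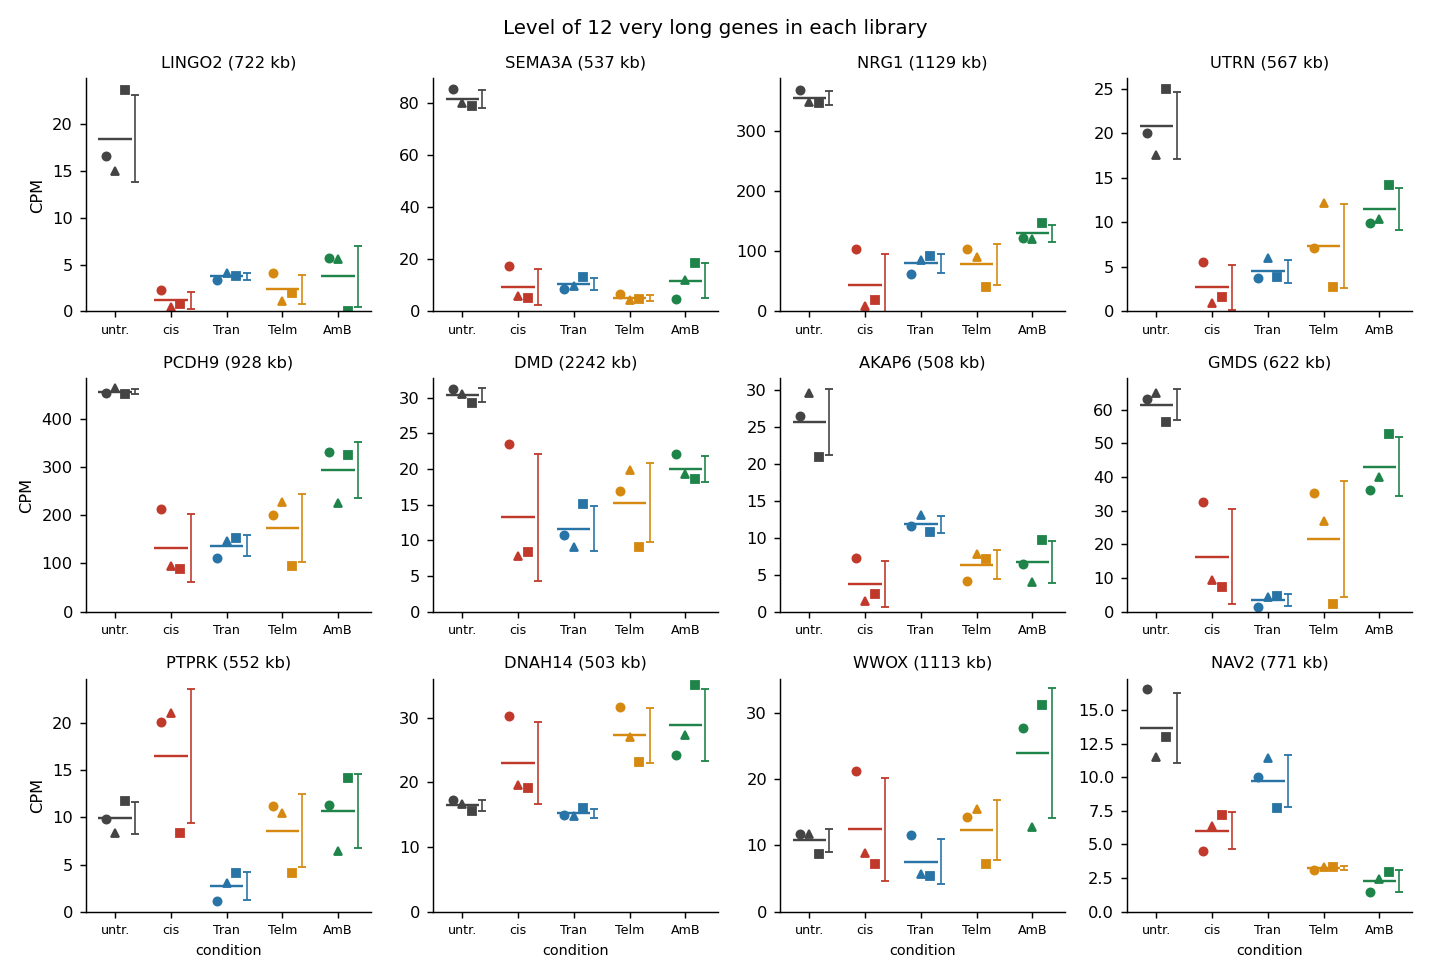
CPM of 12 long genes in the 15 libraries by condition, where each point is a library, the line the mean and the bar the SD. LINGO2, SEMA3A, NRG1, UTRN, PCDH9 and DMD are lower with cisplatin than in untreated cells, while PTPRK, DNAH14 and WWOX have cisplatin means above the untreated ones.

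The loss after cisplatin followed gene span across the whole coding transcriptome. Median log2 fold changes for genes under 10 kb, 10 to 30 kb, 30 to 100 kb, 100 to 200 kb, 200 to 500 kb and at least 500 kb were 0.61, 0.31, -0.27, -1.05, -1.70 and -2.0. The share of genes that were lower was 6.34%, 8.77%, 26.0%, 62.5%, 78.7% and 80.9% in the same order, and the last class holds 89 tested genes, 16 of them under the count limit. Across 10068 protein-coding genes Spearman's rank correlation of span with log2 fold change was -0.615, as a description, since genes of a library share its depth. Among the 73 members it was 0.118, and it was 0.113 with the number of exons and 0.160 with transcript GC content. Without both libraries that stood apart, the class medians were 0.54, 0.35, -0.22, -1.12, -2.26 and -2.81, and the rank correlations with span were -0.588 over coding genes and 0.120 among the members. The loss among the members was thus not ordered by span, and the 11 members of at least 1000 kb had a median of -1.72, with 10 lower. The class of at least 500 kb was lower at each level of expression, with medians of -2.17 in the lowest, -1.70 in the middle and -2.04 in the highest range of mean level (52, 30 and 7 genes).

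**Figure D4:**
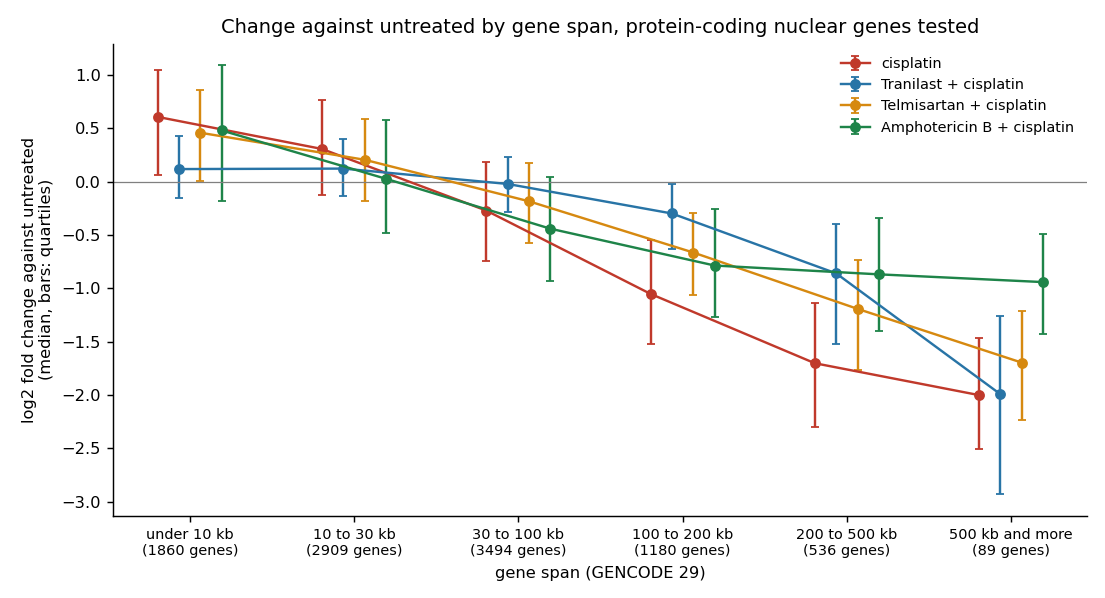
Median log2 fold change against untreated cells, with the quartiles as bars, by gene span class for cisplatin alone and with each drug. The cisplatin medians go from 0.61 under 10 kb to -2.0 at 500 kb and more, while Tranilast stays near 0 up to 100 kb and reaches -1.99 in the last class.

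Genes that were lower lay on both sides of each limit of the rule. Just inside the span limit lay DNAH14 (503.0 kb) and CPQ (504.4 kb), with log2 fold changes of 0.47 and -3.10. Just outside lay DIAPH3 (498.4 kb) and CACNA2D1 (497.4 kb), with -1.94 and -1.3. Just inside the count limit lay CADM2 with 158 and ANK2 with 164 counts, at -1.51 and -2.04. Just outside were VPS13B with 142 and TTC28 with 144 counts, at -1.0 and -2.59. Among these genes at the limits, DNAH14 and VPS13B did not pass edgeR's test (adjusted p = 0.113 and 0.224). Of the 237 long genes under the count limit, 36 had no count, 166 had fewer than 15 and 16 were tested. Of these 16, 10 were lower and 0 higher, where 23.6% of all genes tested were lower and 21.1% higher. Well known long genes were among the 237, with 6 counts for LRP1B, 10 for RBFOX1, 32 for MACROD2 and 120 for FHIT in all 15 libraries. For 54 members the transcript with the longest coding sequence itself spanned at least 500 kb, and 44 of these were lower with a median of -1.89. For the other 19, which reach the limit only by the span over all their annotated transcripts, 18 were lower with a median of -2.04.

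With Tranilast before cisplatin, the median of the long genes was low while the medians of genes under 100 kb lay near 0. Compared with untreated cells 57 members were lower and 0 higher, where 5.66% of all genes tested were lower and 2.44% higher, and the member median was -1.78. By span, the median log2 fold changes against untreated were 0.12, 0.12, -0.02, -0.30, -0.86 and -1.99 from the shortest to the longest class. The share of genes that were lower was 31.5% at 200 to 500 kb and 75.3% at 500 kb and more. The members did not move together against cisplatin alone: 5 were lower and 8 higher, where 11.6% and 10.5% of all genes tested were lower and higher. The member median was -0.14, but turned to 0.39 when scaled by library size alone, which put the median of all genes at 0.46. Its sign turned under several other settings too: it was 0.18 with limma-voom, 0.28 with only the libraries compared, 0.48 at 300 kb, 0.15 at 500 counts and 0.14 at 120 counts over the libraries with cisplatin. It was also 0.56 without cisplatin replicate 1, with or without Telmisartan replicate 3, and 0.098 without Tranilast replicate 1. Without Tranilast replicate 1, members lower than untreated came to 38.4%, and without replicate 2 to 49.3%, against 78.1% with all libraries. The share of all genes lower in these fits is not given. Without both libraries that stood apart, members lower came to 90.4%, with a median of -1.76, where 13.8% of all genes tested were lower.

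The 8 members that rose with Tranilast over cisplatin alone were AKAP6, ZFHX3, STK3, NFIA, LRRTM4, GSE1, AUTS2 and PDE4D. AKAP6 had 11.5, 13.1 and 10.8 CPM with Tranilast, against 7.28, 1.47 and 2.38 CPM with cisplatin alone (log2 fold change 1.73 ± 0.42 SE, adjusted p = 0.00923). ZFHX3 had 100.5, 107 and 108 CPM, all above the cisplatin libraries (log2 fold change 1.49 ± 0.36 SE, adjusted p = 0.00800). LRRTM4 had 16.7, 16.9 and 19.9 CPM (log2 fold change 1.09 ± 0.28 SE, adjusted p = 0.0124). In these 3 genes every Tranilast library remained below every untreated one. STK3, the kinase MST2 of the Hippo pathway, had 10.8, 10.4 and 12.2 CPM with Tranilast and 10.1, 2.45 and 2.38 CPM with cisplatin alone (log2 fold change 1.24 ± 0.42 SE, adjusted p = 0.0413). The 5 members that were lower with Tranilast than with cisplatin alone were PTPRK, GMDS, EXOC4, CADM2 and LPP. PTPRK had 1.12, 3.0 and 4.06 CPM with Tranilast, below every library of cisplatin alone and of untreated cells (log2 fold change -2.48 ± 0.47 SE, adjusted p = 0.00280). GMDS had 1.49, 4.36 and 4.74 CPM against 32.5, 9.32 and 7.15 CPM (log2 fold change -2.07 ± 0.71 SE, adjusted p = 0.0446), and EXOC4 had 4.47, 6.81 and 6.32 CPM (log2 fold change -1.9 ± 0.49 SE, adjusted p = 0.0114). CADM2, a synaptic adhesion molecule, had 1.12, 1.09 and 0.677 CPM against 5.6, 1.96 and 1.99 CPM (log2 fold change -1.66 ± 0.58 SE, adjusted p = 0.0478), which rests on 3, 4 and 3 counts with Tranilast and 10, 4 and 5 with cisplatin alone. For LPP, whose groups overlapped, the Tranilast libraries gave 1.12, 1.36 and 2.93 CPM and the cisplatin libraries 21.3, 4.41 and 1.99 CPM (log2 fold change -2.16 ± 0.74 SE, adjusted p = 0.0430). The calls depended on cisplatin replicate 1 and replicate 3: without replicate 1, 30.1% of members were higher and 1.37% lower, and without replicate 3, 6.85% were higher and 16.4% lower, against 11% and 6.85% with all libraries. Without both cisplatin replicate 1 and Telmisartan replicate 3, 41.1% were higher and 4.11% lower, where all genes tested gave 18.1% and 18.2%. Leaving out each of the other 13 libraries in turn gave 2.74% to 15.1% higher and 2.74% to 11% lower. The share of all genes called is not given for fits that left out 1 library. Under other settings the calls were often lost for CADM2 (18 of 24), GMDS (15 of 25) and STK3 (11 of 25).

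With Amphotericin B before cisplatin the long genes had the smallest median decrease of the 4 conditions in this fit, an order that did not hold in every setting. Against untreated cells 30 members were lower and 2 higher, where 23.3% of all genes tested were lower and 17.6% higher, and the member median was -0.89 against -0.19 for all genes. The medians by span were 0.48, 0.03, -0.44, -0.79, -0.87 and -0.94, so that the classes above 100 kb lay close together. Scaling by library size alone put the median of all genes at -0.75 and that of the members at -1.45, with 54 members lower. The share of all genes lower is not given in that setting. At 1000 kb the median was -1.38, against -1.37 with Tranilast. With the percentage of mitochondrial ribosomal RNA as a covariate it was -2.75, against -1.80 with Tranilast. That percentage was 12.3% to 14.8% with Amphotericin B and 1.79% to 2.20% in untreated libraries. The covariate and the condition therefore cannot be told apart, and no order is drawn from that setting. Without both libraries that stood apart, 67.1% of members were lower and 5.48% higher, with a median of -0.90. All genes tested then gave 31.3% lower and 22.1% higher. The 2 higher members were WWOX, with 27.7, 12.8 and 31.3 CPM (log2 fold change 1.17 ± 0.42 SE, adjusted p = 0.0344), and DNAH14, with 24.2, 27.3 and 35 CPM (log2 fold change 0.81 ± 0.24 SE, adjusted p = 0.0124). The share of higher members was 2.74%, but 0% without Amphotericin B replicate 3, 1.37% without its replicate 1 or any untreated replicate, and 4.11% without cisplatin replicate 1 or Telmisartan replicate 3. Against cisplatin alone 10 members were higher and 1 lower, where 4.21% of all genes tested were higher and 9.01% lower. In 69 of 73 members the log2 fold change was positive, with a median of 1.05, and 24 members had every Amphotericin B library above every cisplatin library, against 10.9% of all genes tested.

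UTRN rose with Amphotericin B, with 9.96, 10.4 and 14.2 CPM against 5.6, 0.981 and 1.59 CPM with cisplatin alone (log2 fold change 2.14 ± 0.57 SE, adjusted p = 0.0223). CEP112, a centrosomal protein, had 17.1, 8.82 and 15.7 CPM against 3.36, 3.43 and 3.18 CPM (log2 fold change 2.06 ± 0.45 SE, adjusted p = 0.00904), which overlaps the untreated range of 13.7, 14.7 and 10.9 CPM. SBF2, a myotubularin-related protein, had 3.56, 8.82 and 11.2 CPM against 2.8, 1.47 and 1.59 CPM (log2 fold change 2.01 ± 0.62 SE, adjusted p = 0.0411). These 3 genes were at 0.981 to 5.6 CPM in the cisplatin libraries, and their standard errors were 0.45 to 0.62. STK3 had 11.4, 20.9 and 15.7 CPM (log2 fold change 1.74 ± 0.44 SE, adjusted p = 0.0172). The other members that rose were PSD3, NFIA, NLGN1, PCDH9, NBEA and ULK4. NAV2 went the other way, with 1.42, 2.41 and 2.98 CPM against 4.48, 6.38 and 7.15 CPM (log2 fold change -1.41 ± 0.45 SE, adjusted p = 0.0440). Of the higher members, 9 were among the 44 with a gene overlapping on the same strand, and 1 among the 29 without. Of the 3 members whose same-strand genes held more than 10% of their counts, 0 were higher. The number of calls rested on single libraries: 76.7% of members were higher without cisplatin replicate 1, 37.0% without Telmisartan replicate 3, 0% without cisplatin replicate 2, and 1.37% without cisplatin replicate 3 or Amphotericin B replicate 3, against 13.7% with all libraries. Without both cisplatin replicate 1 and Telmisartan replicate 3 it was 83.6%, where 20.5% of all genes tested were higher and 22.9% lower. Without Amphotericin B replicates 1 and 2 in turn it was 8.22% and 6.85%. For fits that left out 1 library the share of all genes called is not given. A change in calls over all genes therefore cannot be told apart. Under other settings the calls of NAV2 (19 of 24) and SBF2 (13 of 24) were often lost, that of NAV2 also when any untreated library was left out. Against untreated cells, 21.9% were lower without Amphotericin B replicate 1 and 26.0% without untreated replicate 3, against 41.1%.

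With Telmisartan before cisplatin the long genes were again below untreated cells, and none of them passed the test against cisplatin alone. Against untreated cells 57 members were lower and 1, DNAH14, was higher, where 15.8% of all genes tested were lower and 12.8% higher, with a member median of -1.65. Without both libraries that stood apart, 59 were lower and 2 higher, with a median of -1.35, where all genes tested gave 26.7% and 20.8%. DNAH14 had 31.6, 27.1 and 23.1 CPM (log2 fold change 0.72 ± 0.23 SE, adjusted p = 0.0267), a call that was lost when any untreated replicate was left out and without Telmisartan replicate 1 or 2. Against cisplatin alone 0 members and 0% of all genes tested passed edgeR's test in either direction, and 2 members were lower and 3 higher at an unadjusted p under 0.05, as were 5.33% and 5.02% of all genes tested. The smallest adjusted p among members was 0.315. DESeq2 and limma-voom also called 0 members in either direction. The members with the smallest p were LRRTM4, at 15.3, 11 and 20.4 CPM (0.92, adjusted p = 0.315), NAV2, at 3.06, 3.31 and 3.3 CPM (-0.90, adjusted p = 0.401), and UTRN, at 7.14, 12.2 and 2.75 CPM (1.39, adjusted p = 0.413). None of the 3 passed. Telmisartan replicate 3 was the lowest of its group for 53 of 73 members. Without cisplatin replicate 1, 17.8% of members were higher, and the share of all genes in that fit is not given. Without both that library and Telmisartan replicate 3, 64.4% were higher and 0% lower, with a median of 1.40 in place of 0.32. All genes tested then gave 12.4% higher and 12.5% lower.

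Between drugs, Tranilast and Amphotericin B differed in the most members. In the fit to all libraries, 31 members were lower and 2 higher in the Tranilast libraries than in those of Amphotericin B, where 16.4% and 19.7% of all genes tested were lower and higher, with a member median of -1.09. The 2 higher genes were PDE4D (log2 fold change 0.80 ± 0.27 SE, adjusted p = 0.0301) and NAV2 (log2 fold change 2.08 ± 0.41 SE, adjusted p = 0.00167). GMDS was at 1.49, 4.36 and 4.74 CPM with Tranilast and at 36.3, 40.1 and 52.9 CPM with Amphotericin B, so that the libraries did not overlap (log2 fold change -3.52 ± 0.68 SE, adjusted p = 0.00156). Tranilast and Telmisartan differed in 1 member, NAV2, which was higher with Tranilast (log2 fold change 1.57 ± 0.33 SE, adjusted p = 0.0412), and 0 members were lower, where 0.585% of all genes tested were higher and 1.75% lower. Telmisartan and Amphotericin B differed in 0 members and 0% of all genes tested, with 17 members lower and 0 higher at an unadjusted p under 0.05, where 7.49% and 13.1% of all genes tested were lower and higher. Without cisplatin replicate 1 and Telmisartan replicate 3, Tranilast against Amphotericin B gave 46 members lower and 5 higher (median -1.07). All genes tested gave 21.4% and 27.9%. Tranilast against Telmisartan then gave 30 members lower and 7 higher (median -0.63), so that its count depends on these 2 libraries. Here all genes tested gave 17.3% and 19.3%. Telmisartan against Amphotericin B still gave 0 members in either direction, where all genes tested gave 0.329% lower and 0.826% higher. Cisplatin samples are shared by the 3 comparisons with cisplatin alone, and untreated samples by the 4 with untreated cells, so these comparisons are not independent of each other.

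Lower in all 4 conditions with cisplatin than in untreated cells were 23 of the 73 members, where 3.56% of all genes tested were lower in all 4. Without the 2 libraries that stood apart 44 members were, and the share of all genes in that setting is not given here. The 23 include the adhesion and guidance genes LINGO2, SEMA3A, NRG1, NCAM2, CADM2 and ADGRL2, the cytoskeletal genes ANK2, DIAPH2 and AGAP1, and the traffic genes FBXL17, RABGAP1L and RIMS2. SEMA3A was at 8.56, 9.81 and 13.3 CPM with Tranilast, 6.63, 4.42 and 4.68 CPM with Telmisartan and 4.98, 12 and 18.6 CPM with Amphotericin B, all far below 85.4, 80.3 and 78.9 CPM in untreated cells. NRG1 was at 62.5, 86.1 and 91.8 CPM with Tranilast, at 104, 91.1 and 40.2 CPM with Telmisartan and at 122, 121 and 147 CPM with Amphotericin B. LINGO2 was at 3.35, 4.09 and 3.84 CPM, at 4.08, 1.1 and 1.93 CPM and at 5.69, 5.61 and 0 CPM for the same drugs in that order, with 0 counts in Amphotericin B replicate 3. SEMA3A thus ran from 4.42 to 18.6 CPM over the 12 libraries with cisplatin, and NRG1 was higher with Amphotericin B than with cisplatin alone in every library, a difference that did not pass the test (1.58, adjusted p = 0.0538).

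Mitochondrial ribosomal RNA varied between these libraries. MT-RNR1 and MT-RNR2 together took 1.79% to 2.20% of counts in untreated libraries and 2.10% to 2.53% with Tranilast, but 13.7%, 5.61% and 3.41% with cisplatin alone, 10.8%, 12.9% and 3.61% with Telmisartan and 12.3% to 14.8% with Amphotericin B. Within the cisplatin, the Telmisartan and the Amphotericin B libraries (13.6%, 12.3% and 14.8% in the last) the order of this percentage was also the order of the member medians. With Tranilast it was not: the percentages were 2.53%, 2.10% and 2.17%, and replicate 1, with the highest, had the lowest member median. The medians against the untreated mean were -0.98, -2.36 and -2.67 with cisplatin, -1.40, -1.33 and -2.50 with Telmisartan, -0.93, -1.01 and -0.78 with Amphotericin B, and -2.11, -1.66 and -1.62 with Tranilast. In both values cisplatin replicate 1 lay nearer Telmisartan replicates 1 and 2 than its own group. Telmisartan replicate 3 lay nearer cisplatin replicates 2 and 3, and the reason was not tested. SMYD3, LPP and EXOC6B, chosen after their values were seen, were also high in the libraries with much of this RNA. SMYD3 was at 36.4, 5.4 and 3.18 CPM with cisplatin alone, at 1.12, 3.0 and 2.71 CPM with Tranilast, at 26.5, 26 and 0.550 CPM with Telmisartan and at 37.7, 18.4 and 32 CPM with Amphotericin B. With the percentage of this RNA as a covariate, a setting added after the data were seen, the member median was -3.10 for cisplatin against untreated with 69 lower, 0.85 for Tranilast against cisplatin, and 1 member rose with Amphotericin B over cisplatin. No cisplatin, Telmisartan or Amphotericin B library fell in the untreated range of this percentage, so the covariate cannot separate it from those conditions. The part of this RNA in the results was otherwise not tested.

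**Figure D5:**
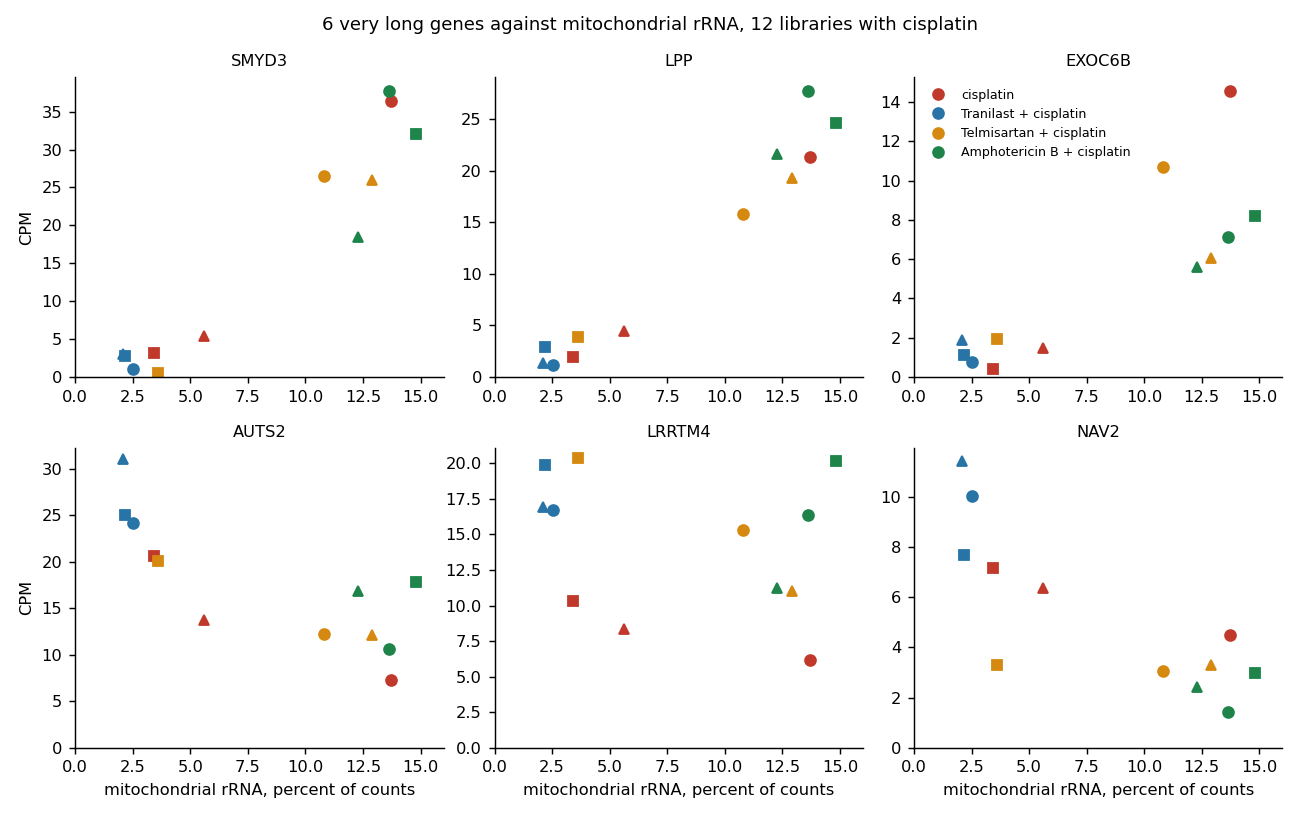
CPM of 6 long genes against the percentage of counts on mitochondrial ribosomal RNA in the 12 libraries with cisplatin, coloured by condition. Where this percentage is 5.61 or less, SMYD3, LPP and EXOC6B reach at most 5.40 CPM, and AUTS2, LRRTM4 and NAV2 do not show such a rise.

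After cisplatin alone, genes of elongation control and transcription-coupled repair, which act on the same process, were called lower or higher about as often as all genes tested. Of 54 symbols listed 52 were tested. After cisplatin 11 were lower (21.2%) and 10 higher (19.2%), where all genes tested gave 23.6% and 21.1%, with a median of -0.13 and a median span of 40.4 kb. HEXIM1, the inhibitor of the elongation kinase P-TEFb and a gene of 3.6 kb, had the smallest adjusted p, at 55.5, 47.8 and 50.4 CPM in untreated and 236, 221 and 176 CPM in cisplatin libraries (log2 fold change 2.04 ± 0.22 SE, adjusted p = 7.46e-06). ELOF1, an elongation factor of repair at stalled polymerase, rose by 1.63, and ELOA, the elongin subunit, by 1.28. CDC73, a subunit of the PAF1 elongation complex with a span of 133.0 kb, fell by 1.5, TOP2B, a topoisomerase of transcribed chromatin, by 1.14 and USP7, a deubiquitinase of the repair complex, by 1.01. In the comparisons of a drug with cisplatin alone, 6 of the 52 (11.5%) were lower and 6 higher after Tranilast, where all genes tested gave 11.6% and 10.5%. After Amphotericin B 3 were lower (5.77%) and 2 higher (3.85%), where all genes gave 9.01% and 4.21%, and after Telmisartan 0 passed either way. Against untreated cells, Amphotericin B gave 16 lower (30.8%) and 5 higher (9.62%), where all genes gave 23.3% and 17.6%. Tranilast gave 2 lower (3.85%) and 1 higher (1.92%), where all genes gave 5.66% and 2.44%. Telmisartan gave 8 lower (15.4%) and 7 higher (13.5%), where all genes gave 15.8% and 12.8%.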

How the data were processed

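RNA of 15 IGROV-CP20 libraries was sequenced by QuantSeq. The authors deposited raw counts per Ensembl gene for each library, without normalization. The submitters' processing notes name STAR 2.3.0, HTSeq and the genome hg19, and the annotation and strand setting are not given in the sources used here. Groups and replicate numbers came from the sample labels, which describe biological replicates. Of 47634 gene identifiers, 45776 were matched in GENCODE 29 (GRCh38), which gave spans and positions, so that positions are not those of the alignment. The filterByExpr function kept 11113 genes, all 73 members included. Counts were fitted with TMM factors and edgeR's quasi-likelihood model on all 15 libraries (edgeR 4.0.16, R 4.3.3), p was adjusted by Benjamini-Hochberg over all genes in a comparison, the threshold was 0.05, and the SE was |log2 fold change| divided by the root of F. Alternatives used limma 3.58.1 and DESeq2 1.42.0. Tables and plots used Python 3.11.15, numpy 2.4.6, pandas 2.3.3 and matplotlib 3.10.9. The fits were tested on simulated data.

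The members, gene lists and tests were chosen with earlier results of these data known. Named members are the 10 with the largest change each way for cisplatin against untreated and the 4 each way for a drug against cisplatin, among those past the threshold with libraries that do not overlap (the 3 smallest p where fewer than 2 passed), the 5 with most counts and the 5 longest, well known long genes, the 2 smallest adjusted p of each role, and the genes at the limits of the rule. For the elongation list the 3 smallest adjusted p each way are named. Roles are a hand-made grouping. Alternatives were RLE factors, library size only, another filter or none, limma-voom, DESeq2, only the 6 libraries compared, the replicate number as a block, each library left out, and other limits of span, counts or overlap. No count column was left out. An item withheld from the text is not reported here.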

Additional observations from a re-analysis of the deposited data

How the results depend on the processing

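Values are the percentage of the long genes called lower or higher, or the median log2 fold change. Apart from the fit without cisplatin replicate 1 and Telmisartan replicate 3, the share of all genes called under other settings is not given. A change in calls over all genes therefore cannot be told apart there. For cisplatin against untreated (84.9% lower, median -1.97) and Tranilast against untreated (78.1% lower), the share lower stayed within 1.5 times of these values in every setting that kept all libraries, and the cause of the changes that follow was not tested. For Tranilast against cisplatin (6.85% lower, 11% higher), the share lower was 2.74% with library size only, limma-voom or the replicate block, 12.3% without a filter, 15.1% with DESeq2, 4.11% with only the libraries compared, 2.14% at 300 kb and 13.8% without same-strand overlaps. The share higher was 28.8% with library size only, 19.2% without a filter, with limma-voom or at 300 kb, 2.74% with only the libraries compared and 27.3% at 1000 kb. For Amphotericin B against cisplatin (1.37% lower, 13.7% higher), the share lower was 0.427% at 300 kb. It was 0% with RLE factors, the filter of CPM above 1, no filter, DESeq2, limma-voom, only the libraries compared, the replicate block, at 1000 kb, at 500 counts and without same-strand overlaps. The share higher was 42.5% without a filter, 24.7% with DESeq2, 21.9% with limma-voom, 0% with only the libraries compared or at 1000 kb, and 3.45% without same-strand overlaps. The median for Tranilast against untreated was -1.38 at 300 kb and -1.37 at 1000 kb. For Telmisartan against untreated (1.37% higher), the share higher was 0% with library size only, without a filter and at 1000 kb, 0.427% at 300 kb, 2.70% at 500 counts and 3.45% without same-strand overlaps. For Amphotericin B against untreated (41.1% lower, 2.74% higher, median -0.89), the share lower was 74.0% with library size only and 24.1% without same-strand overlaps. The share higher was 0% with library size only, 1.37% without a filter, 5.48% with only the libraries compared, 0.855% at 300 kb and 9.09% at 1000 kb, and the median was -1.45, -0.77 with DESeq2, -0.72 with only the libraries compared and -1.38 at 1000 kb.

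Settings added after seeing the data were of 4 kinds. Without both cisplatin replicate 1 and Telmisartan replicate 3, Tranilast against cisplatin gave 4.11% lower and 41.1% higher, Tranilast against untreated 90.4% lower, Telmisartan against cisplatin 64.4% higher with a median of 1.40, Amphotericin B against cisplatin 83.6% higher, Telmisartan against untreated 2.74% higher, and Amphotericin B against untreated 67.1% lower and 5.48% higher. The shares of all genes tested in this setting are given with each comparison above. With mitochondrial rRNA as a covariate the medians were -3.10 for cisplatin, -3.07 for Telmisartan, -2.75 for Amphotericin B and -1.80 for Tranilast against untreated, and 0.85 for Tranilast against cisplatin. The shares were then 1.37% lower and 38.4% higher for Tranilast, 2.74% higher for Telmisartan, and 0% lower and 1.37% higher for Amphotericin B, each against cisplatin. Against untreated 0% were higher with Telmisartan, and 72.6% lower and 0% higher with Amphotericin B. The percentage of this RNA did not overlap between untreated and cisplatin, Telmisartan or Amphotericin B libraries. The covariate and these conditions therefore cannot be told apart. With spans taken from the transcript with the longest coding sequence, the median of Tranilast against untreated was -2.17, and 0% were lower for Amphotericin B against cisplatin and 0% higher for Telmisartan against untreated. With at least 120 counts over the 12 libraries with cisplatin, every share stayed within 1.5 times of its value and every median within 1 SD of the libraries.

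Each library was left out in turn. For cisplatin against untreated, the share lower was 67.1% to 94.5%, the share higher 0% to 1.37% and the median -2.72 to -1.68. Against cisplatin the Tranilast values were 1.37% to 16.4% lower, 2.74% to 30.1% higher and a median of -0.39 to 0.56. For Telmisartan 0% to 17.8% were higher, with a median of -0.012 to 1.01, and for Amphotericin B 0% to 1.37% were lower and 0% to 76.7% higher, with a median of 0.73 to 1.94. Against untreated, Tranilast gave 38.4% to 87.7% lower (median -2.03 to -1.72), Telmisartan 61.6% to 82.2% lower and 0% to 1.37% higher (-1.87 to -1.35), and Amphotericin B 21.9% to 50.7% lower and 0% to 4.11% higher (-0.97 to -0.85). The replicate block gave 64 members lower for cisplatin against untreated, 2 lower and 9 higher for Tranilast and 0 and 14 for Amphotericin B against cisplatin. The labels give no link between libraries of the same number beyond that number. Their deviations from the group means had a mean correlation of 0.0200 over 30 pairs, against -0.0115 over 60 pairs of other numbers. Single pairs ran from -0.235 to 0.631 and from -0.585 to 0.481, and 0 of 10 pairs of conditions had every correlation over 0.1. The highest was replicate 3 of cisplatin with replicate 3 of Telmisartan. The group means include the 2 libraries that stood apart, so these values do not settle whether the libraries were paired. Of 1168 values of named genes under other settings, 1049 kept their side of the threshold, 101 lost the call, 18 gained it and 0 changed sign as a call. Genes under 15 counts in all 15 libraries are beyond what this depth can show.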

Other observations

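Among 67 tabulated non-coding genes of at least 500 kb, only DLEU1 was tested, a gene on chromosome 13 with a span of 641.1 kb and 235 counts. It had 4.07 to 5.75 CPM in untreated and 5.04 to 10.3 CPM in cisplatin libraries, a change that did not pass (log2 fold change 0.84), and 7.82 to 12.8 CPM with Amphotericin B, where it was higher than in untreated cells (log2 fold change 1.17).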
